A study of Homo sapiens with 4 samples.

Results

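The integrin subunits described here are 10 genes, 5 alpha subunits (ITGA2, ITGA3, ITGA5, ITGA6 and ITGAV) and 5 beta subunits (ITGB1, ITGB4, ITGB5, ITGB6 and ITGB8), out of 26518 genes in the table. They were chosen by symbol, with earlier results of these data known. Every one was found by its Ensembl identifier in GENCODE release 29 on hg38. The cells were MDA-MB-468, an established human line from a triple-negative breast cancer, labelled as breast cancer epithelial cells and grown in DMEM with 5% FBS. Control cells (shControl, 2 libraries) had been infected with the lentiviral control vector pGIPZ-CTRL, and depleted cells (shSASH1, 2 libraries) with a SASH1-shRNA lentivirus. Puromycin selection of stable clones was applied to both, and the number of clones or hairpins is not given in the sources used here. Nothing in the labels tells if replicate libraries were grown as separate cultures, so the p-values reflect only how far these particular libraries differed, and that spread may be technical.

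Integrins are cell surface receptors for the extracellular matrix, and each is a dimer of an alpha and a beta subunit. The pair decides the ligand: ITGA2 with ITGB1 binds collagen, ITGA3 and ITGA6 bind laminins, ITGA5 with ITGB1 binds fibronectin, and ITGAV binds proteins with an RGD motif together with ITGB1, ITGB5, ITGB6 or ITGB8. ITGA6 pairs with ITGB1 or with ITGB4, and the pair with ITGB4 anchors basal epithelial cells to laminin at hemidesmosomes. Inside the cell, talin and kindlin bind the beta tails and switch the receptors on. Only transcripts were measured here, not subunits or dimers at the cell surface.

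Libraries summed to between 910830 and 926711 TPM (a transcript level divided by transcript length and scaled to a common library total), and read numbers rebuilt from TPM came to between 19527386 and 24361351 per library. SASH1, the targeted gene, stood at 15.0 and 13.0 TPM in shControl and at 3.65 and 4.01 TPM in shSASH1. All 8 breast epithelial markers were present in every library, from CDH1 at 48.2 to 80.4 TPM to KRT19 at 1728 to 2548 TPM. Of these EGFR passed as higher, at 1169 and 1075 TPM in shControl and 2191 and 2203 TPM in shSASH1, and the other 7 did not pass (limma). The shSASH1 libraries lay apart in KRT17 (560 and 227 TPM) and KRT5 (1225 and 758 TPM). Summed over 7 markers, the fibroblast level ranged from 6.42 to 7.15 TPM in shControl and from 9.37 to 11.5 TPM in shSASH1, nearly all of it COL1A1, with COL1A2 and LUM at 0 in all 4 libraries. The 8 leukocyte markers summed to 35.2 and 42.5 TPM in shControl and to 37.9 and 104 TPM in shSASH1, mostly CD14, with LYZ at 0 throughout and PTPRC at 0 in shControl and 0.0830 and 0.104 TPM in shSASH1. Their part in the results was not tested, and in bulk samples fewer cells of a type and less RNA per cell cannot be told apart.

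The groups were compared with limma on log2(TPM + 1) over the 14458 genes whose mean reached 1 TPM, and a gene was called at a Benjamini-Hochberg adjusted p under 0.05. All 10 subunits were above that level. ITGA2, ITGA3, ITGA6, ITGAV and ITGB6 rose in shSASH1, ITGB4 and ITGB8 fell, and ITGA5, ITGB1 and ITGB5 did not pass. That is 5 of 10 higher and 2 of 10 lower, or 70.0% called, where 32.0% of all tested genes were called, 18.8% higher and 13.3% lower. Of all called genes 58.6% were higher, a share that was 48.4% after quantile normalization and 47.4% with voom on rebuilt reads. The median log2 change was 0.61 over the 10 subunits and 0.06 over all tested genes. Over the whole integrin family, 6 of 15 tested genes were higher and 3 lower (60.0% called, median log2 change 0.36). Among the lower ones ITGA7, at a mean of 1.02 TPM, reached the filter only through shControl. The groups did not overlap for any of the 10 subunits, 7 being higher and 3 lower, where 73.6% of all tested genes did not overlap, 41.3% higher and 32.3% lower. All log2 changes are shSASH1 minus shControl on the log2(TPM + 1) scale, which understates the change of low genes. A permutation test of 2 against 2 libraries cannot give an exact two-sided p under 0.333, so the calls rest on limma's model. Without either shControl library 0 of the 10 subunits and 0 of all tested genes passed, since the spread then came from the shSASH1 pair alone.

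**Figure D1:**
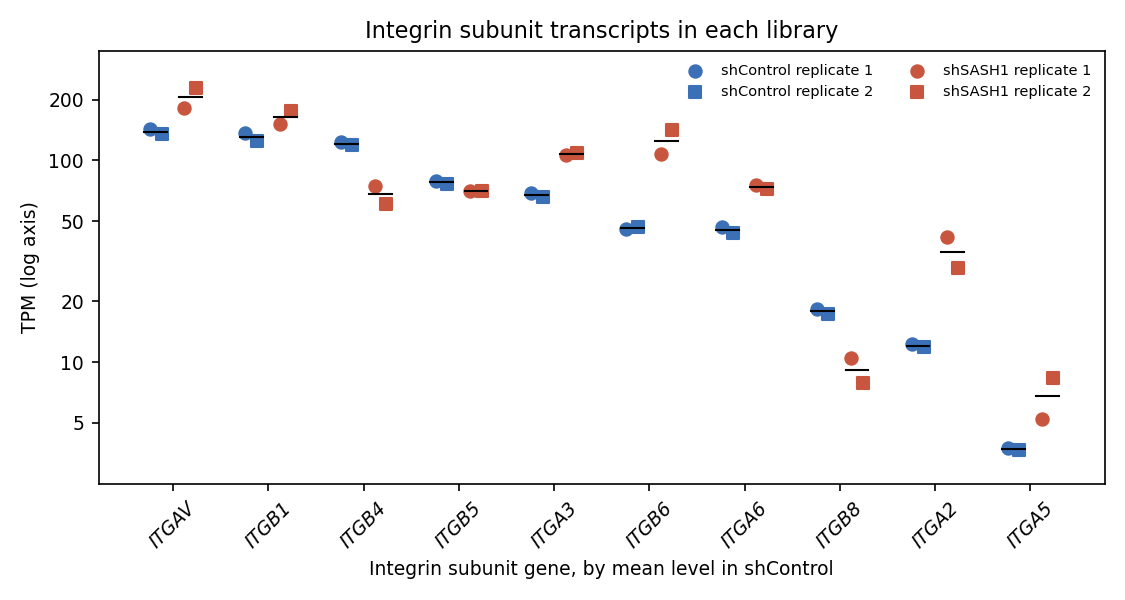
Levels of the 10 integrin subunit transcripts in TPM on a log axis, ordered by their shControl mean, with 1 point per library (circles replicate 1, squares replicate 2) and bars at the group means. ITGB6 and ITGA2 lie well above their shControl points in both shSASH1 libraries, while ITGB4 and ITGB8 lie below them.

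Within shControl the order of levels, which TPM allows because it is scaled by length, ran from ITGAV (139 ± 4.76 TPM, SD, n = 2) and ITGB1 (131 ± 8.28 TPM) through ITGB4, ITGB5, ITGA3, ITGB6, ITGA6, ITGB8 and ITGA2 to ITGA5 (3.71 ± 0.0810 TPM). Of the neighbours in that order, ITGAV and ITGB1 overlapped, as did ITGB6 and ITGA6. In shSASH1 the order was ITGAV (205 ± 32.4 TPM), ITGB1 (164 ± 17.5 TPM), ITGB6, ITGA3, ITGA6, ITGB5, ITGB4, ITGA2, ITGB8 and ITGA5 (6.80 ± 2.23 TPM). There ITGB6 and ITGA3, ITGB5 and ITGB4, and ITGB8 and ITGA5 were neighbours whose libraries overlapped. ITGB6 thus moved from rank 6 to rank 3 and ITGB4 from rank 3 to rank 7, while ITGAV and ITGB1 stayed at ranks 1 and 2.

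The subunits that rose most, ITGA2 and ITGB6, have unlike sequences before their start sites, which are shown for that reason with CpG dinucleotides in capitals. Both come from RefSeq's promoter table on GRCh38.p14, read 5′ to 3′ on the gene's strand and ending at the base before the gene's first exon in GENCODE. The ITGA2 stretch is chr5:52989102-52989325 on the plus strand, and the ITGB6 stretch is chr2:160200314-160200522 on the minus strand.
ITGA2: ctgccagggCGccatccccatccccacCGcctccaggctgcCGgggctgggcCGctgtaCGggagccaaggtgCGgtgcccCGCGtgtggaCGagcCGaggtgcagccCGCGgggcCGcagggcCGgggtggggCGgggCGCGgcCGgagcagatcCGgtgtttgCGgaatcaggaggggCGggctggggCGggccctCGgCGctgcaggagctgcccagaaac
ITGB6: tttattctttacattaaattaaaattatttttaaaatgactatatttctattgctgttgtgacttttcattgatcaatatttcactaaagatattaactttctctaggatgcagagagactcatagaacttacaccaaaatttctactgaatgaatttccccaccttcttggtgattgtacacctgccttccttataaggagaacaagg
The 224 bases of ITGA2 hold 24 CpG dinucleotides at a GC content of 77.2%, and the 209 bases of ITGB6 hold 0 at 30.1%. Over the 250 bases before the RefSeq start, 92.5% of the 35116 windows in the table had a GC content at or below that of ITGA2 (76.4%), and 1.75% at or below that of ITGB6 (30.0%). The table held 13 windows for 8 of the subunits. On either strand, the letters GGAATG, the core of the TEAD motif, were in 2 of the 13, 1 each of ITGB1 and ITGA5, and in 11.9% of all windows. The AP-1 letters TGANTCA were in 0 of the 13 and in 6.57% of all windows.

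ITGA2 (chromosome 5, 52989326 to 53094779, plus strand), the alpha chain of the main epithelial collagen receptor, stood at 12.2 and 12.0 TPM in shControl and at 41.5 and 29.2 TPM in shSASH1. Both shSASH1 libraries were above both controls, and replicate 1 was the higher of the pair. The mean rose from 12.1 ± 0.205 to 35.4 ± 8.74 TPM (SD, n = 2 per group), which is 2.92-fold. On the log2 scale that was 1.45 ± 0.18 (SE; limma adjusted p = 0.00855). It had the largest absolute log2 change of the 10 subunits. Tested genes within 10 Mb on either side had a median log2 change of 0.29, and centred on them ITGA2 still passed at 1.16. The 3 protein-coding genes with the nearest profile over the 4 libraries, by Euclidean distance of log2(TPM + 1) centred on each gene's mean, were BMP2 (0.0852), CCDC107 (0.105) and SIX3 (0.113). With 4 libraries in 2 groups such a distance mostly reflects the size of the change.

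Of the laminin-binding chains among the listed subunits, the alpha chains ITGA3 and ITGA6 rose and ITGB4, the beta subunit of the hemidesmosome, fell. ITGA3 (chromosome 17, 50055968 to 50090481, plus strand), which pairs with ITGB1, stood at 69.1 and 65.9 TPM in shControl and at 107 and 109 TPM in shSASH1. The libraries of each group lay close together, and the mean rose 1.60-fold (log2 change 0.67 ± 0.06, limma adjusted p = 0.00460). ITGA6 (chromosome 2, 172427354 to 172506282, plus strand) stood at 47.0 and 43.8 TPM in shControl and at 75.5 and 72.2 TPM in shSASH1. It rose 1.63-fold, nearly the same change as ITGA3 (log2 change 0.69 ± 0.07, limma adjusted p = 0.00572). ITGB4 (chromosome 17, 75721328 to 75757818, plus strand), whose long cytoplasmic tail binds plectin, went the other way, from 124 and 119 TPM in shControl to 74.9 and 61.2 TPM in shSASH1. Its mean fell from 121 ± 3.60 to 68.1 ± 9.73 TPM (log2 change -0.83 ± 0.11, limma adjusted p = 0.00996). The TPM of ITGB4 was 2.63 and 2.71 times that of ITGA6 in the shControl libraries and 0.992 and 0.848 times in shSASH1. That ratio fell in both shSASH1 libraries to about equal TPM (exact permutation p = 0.333, the smallest 2 against 2 libraries can give).

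**Figure D2:**
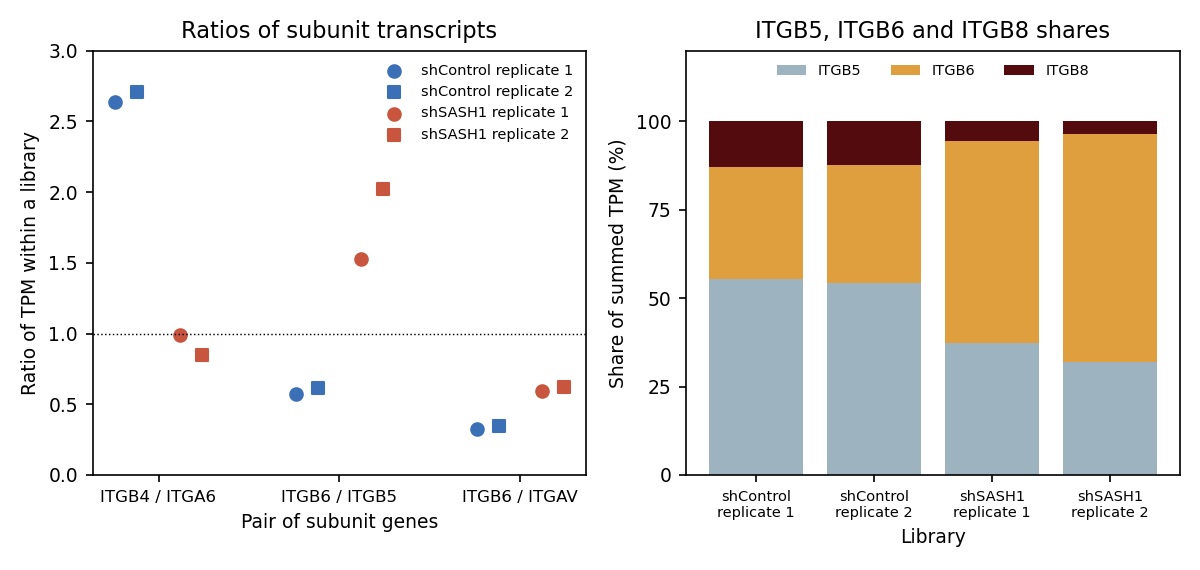
Left, ratios of TPM between pairs of subunit genes within each library (blue shControl, red shSASH1, dotted line at equal levels). Right, stacked shares of ITGB5, ITGB6 and ITGB8 in their summed TPM per library, where ITGB6 goes from 31.9% and 33.4% in shControl to 57.0% and 64.5% in shSASH1.

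The fibronectin receptor chain and the common beta subunit were higher in both shSASH1 libraries without passing. ITGA5 (chromosome 12, 54395261 to 54419460, minus strand) was the least abundant subunit, at 3.76 and 3.65 TPM in shControl and 5.22 and 8.38 TPM in shSASH1, on 167 to 332 rebuilt reads per library. The shSASH1 libraries differed more from each other than replicate 1 differed from the controls, and the log2 change of 0.70 had a 95% interval of 0.07 to 1.32 (limma adjusted p = 0.0850). Without shSASH1 replicate 1 the change was 0.99 and passed (adjusted p = 0.0105), and without replicate 2 it was 0.40 and did not. ITGB1 (chromosome 10, 32900319 to 33005792, minus strand), the partner of ITGA2, ITGA3, ITGA5 and ITGA6, stood at 136 and 125 TPM in shControl and 152 and 177 TPM in shSASH1. Its log2 change of 0.33 had an interval of 0.07 to 0.59 and did not pass (limma adjusted p = 0.0648), and it passed without shSASH1 replicate 1 (0.44, adjusted p = 0.0203). The summed level of ITGA2, ITGA3 and ITGA5, alpha chains that pair with ITGB1 alone, was 85.1 and 81.5 TPM in shControl and 153 and 147 TPM in shSASH1. It lay below the ITGB1 level of the same library in shControl, and in shSASH1 it was close to ITGB1 in replicate 1 and below it in replicate 2.

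The alpha chain ITGAV, part of several RGD-binding receptors, rose, while the beta chains that pair with it went in different directions. ITGAV (chromosome 2, 186590065 to 186680901, plus strand) stood at 143 and 136 TPM in shControl and 183 and 228 TPM in shSASH1, a 1.48-fold rise (log2 change 0.55 ± 0.12, limma adjusted p = 0.0308). Both shSASH1 libraries were above the controls, replicate 2 more so. This call was the least steady of the 7: tested genes within 10 Mb had a median change of 0.25, and centred on them ITGAV had 0.31 and did not pass (adjusted p = 0.0846).

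ITGB6 (chromosome 2, 160099666 to 160200313, minus strand), an epithelial beta chain whose dimer with ITGAV activates latent TGF-beta, stood at 45.8 and 46.9 TPM in shControl and at 108 and 142 TPM in shSASH1. Its mean rose from 46.4 ± 0.799 to 125 ± 24.0 TPM, a 2.69-fold change (1.40 ± 0.14 in log2, limma adjusted p = 0.00571). It was 1.29 when centred on neighbouring genes, whose median was 0.07. In GENCODE 966 exon bases of ITGB6 are shared with a processed transcript on the same strand, not analysed here, and reads of such overlaps cannot be told apart. ITGB8 (chromosome 7, 20330702 to 20415754, plus strand), the other beta chain known for activating latent TGF-beta, stood at 18.3 and 17.4 TPM in shControl and 10.5 and 7.86 TPM in shSASH1. Its mean fell from 17.9 ± 0.647 to 9.18 ± 1.86 TPM (log2 change -0.90 ± 0.16, limma adjusted p = 0.0176). ITGB5 (chromosome 3, 124761948 to 124901418, minus strand), a receptor chain for vitronectin, was nearly level at 79.6 and 76.3 TPM in shControl and 70.7 and 70.2 TPM in shSASH1. It did not pass (log2 change -0.14, interval -0.30 to 0.01, limma adjusted p = 0.130). Quantile normalization (-0.25, adjusted p = 0.0419), voom on rebuilt reads (-0.22, adjusted p = 0.0451) and centring on neighbours with a median of 0.18 (-0.33, adjusted p = 0.0398) each brought it past the threshold as lower.

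Within each library ITGB6 thus took a larger share of the beta chains that pair with ITGAV alone. Of the summed TPM of ITGB5, ITGB6 and ITGB8, ITGB6 held 31.9% and 33.4% in shControl and 57.0% and 64.5% in shSASH1. The share of ITGB5 was 55.4% and 54.3% in shControl and 37.4% and 31.9% in shSASH1, and that of ITGB8 was 12.8% and 12.4% in shControl and 5.55% and 3.58% in shSASH1. The TPM of ITGB6 was 0.576 and 0.615 times that of ITGB5 in shControl and 1.52 and 2.02 times in shSASH1. It was 0.321 and 0.346 times that of ITGAV in shControl and 0.591 and 0.621 times in shSASH1. The groups did not overlap for any of these shares and ratios (exact permutation p = 0.333 each, the smallest possible).

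**Figure D3:**
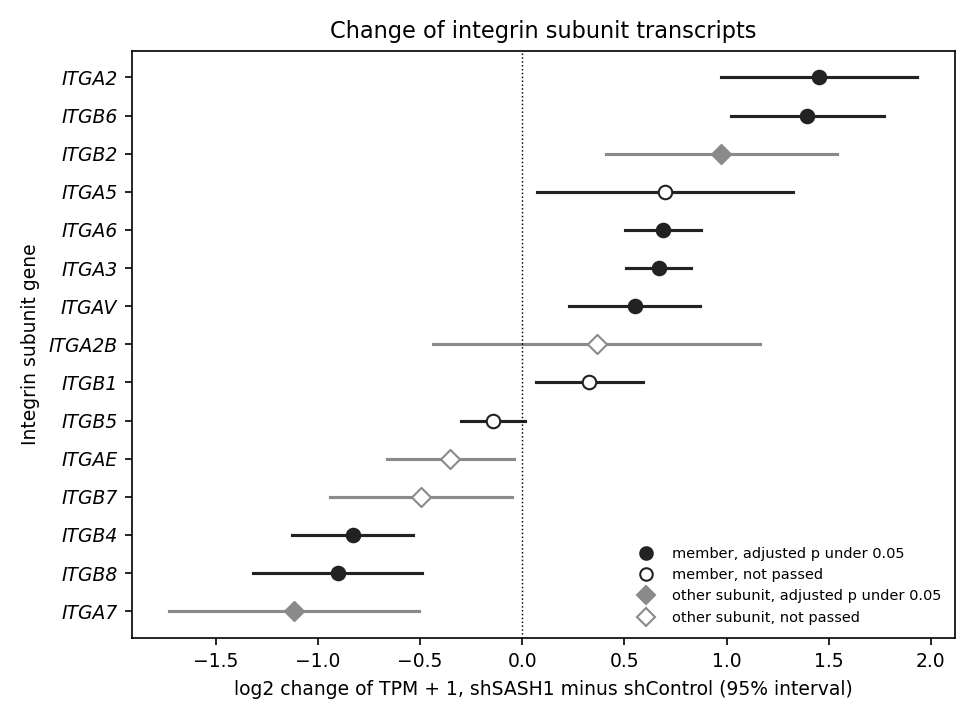
log2 change of TPM + 1 (shSASH1 minus shControl) with 95% intervals from limma for the 10 subunits (circles) and the 5 other integrin subunits tested (diamonds), filled where adjusted p was under 0.05. ITGA2 and ITGB6 are the highest, and ITGA7, ITGB8 and ITGB4 the lowest.

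The alpha chains summed to 275 and 261 TPM in shControl and 411 and 447 TPM in shSASH1, and the beta chains to 404 and 384 TPM in shControl and 416 and 458 TPM in shSASH1. The alpha sum was thus clearly higher in shSASH1, and the beta sum only slightly higher in replicate 1 of shSASH1 than in the controls. In shControl, replicate 2 lay below replicate 1 in 9 of the 10 subunits. In shSASH1 it lay above replicate 1 in 5 of 10, by up to 0.59 (ITGA5) on the log2(TPM + 1) scale and below by as much as -0.50 (ITGA2). The median within-group SD over all tested genes was 0.0507 in shControl and 0.126 in shSASH1 on that scale.

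Of the 16 other integrin subunits, 5 passed the filter on low values, of which 1 rose and 1 fell (40.0% called, near the 32.0% of all tested genes), with a median log2 change of -0.35. ITGB2, the leukocyte beta chain, rose from 1.49 and 1.89 TPM to 3.64 and 4.98 TPM (log2 change 0.97 ± 0.21, limma adjusted p = 0.0307). Centred on its neighbours it did not pass (0.73, adjusted p = 0.0781). Its partner ITGAM, at 0.270 and 0.666 TPM in shControl and 0.857 and 2.11 TPM in shSASH1, was under the filter. ITGA7, a laminin receptor chain of muscle, fell from 1.90 and 1.62 TPM to 0.215 and 0.330 TPM (log2 change -1.12 ± 0.23, limma adjusted p = 0.0267). Its mean of 1.02 TPM reached the filter only through shControl, and the shSASH1 libraries held 9 and 11 rebuilt reads. ITGA7 being counted as lower thus depends on that filter, while ITGA9 and ITGAM, higher in both shSASH1 libraries, lay just under it at means of 0.971 and 0.977 TPM. With a replicate block it did not pass (-1.12, adjusted p = 0.0569). ITGAE (-0.35), ITGB7 (-0.50) and ITGA2B (0.36) did not pass. The other 11 were under the filter, among them ITGB3, a beta chain that can pair with ITGAV, at 0.0776 and 0.0663 TPM in shControl and 0.173 and 0.261 TPM in shSASH1. In ITGB7, ITGAE, ITGB2 and ITGA7, exon bases overlap genes on the opposite strand. The same holds for ITGA5, ITGA6, ITGAV, ITGB1 and ITGB8 and for several of the partners named below. Among those partners RAB11FIP1 shares 2385 exon bases and ITGB1BP1 2209 with a gene on the opposite strand. The use of strand is not given in the sources used here.

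**Figure D4:**
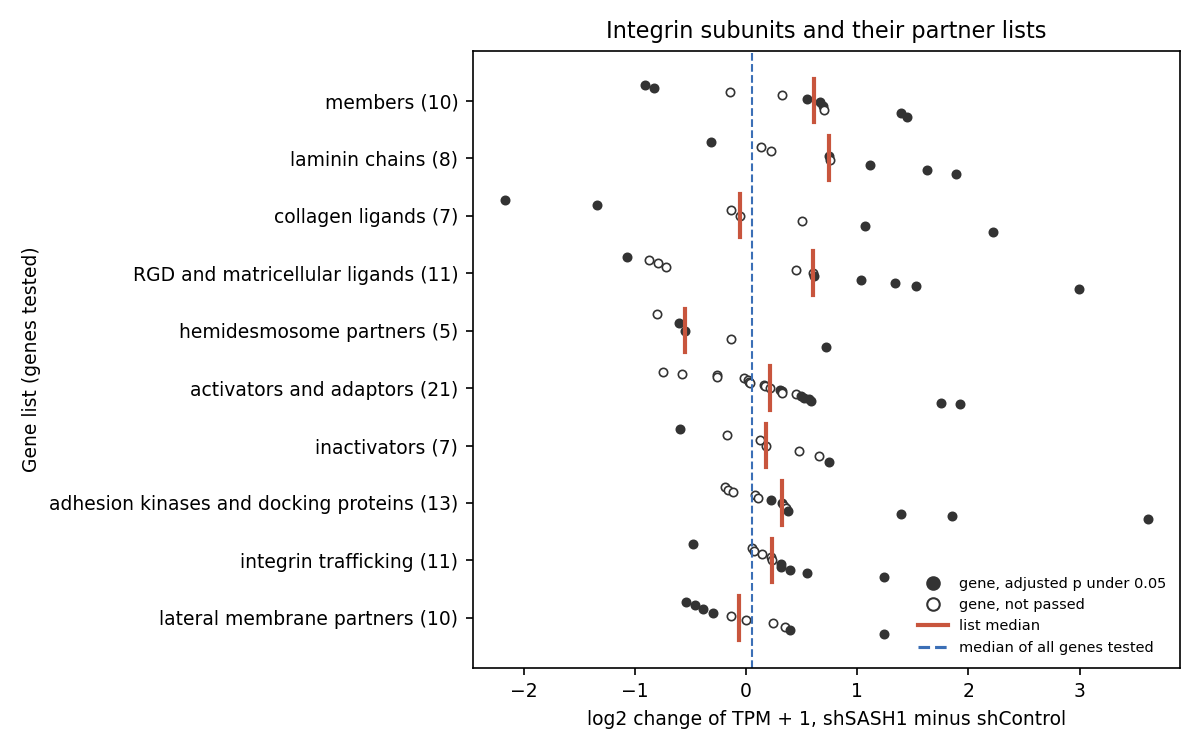
log2 change of TPM + 1 (shSASH1 minus shControl) of each tested gene of the 10 subunits and of 9 partner lists, filled where limma's adjusted p was under 0.05, with the list median in red and the median of all tested genes as a dashed blue line. The laminin list has the highest median and the hemidesmosome list the lowest.

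Ligands of these receptors are given by family, beside 32.0% called among all tested genes, 18.8% higher and 13.3% lower, and differences between the families were not tested. Among laminin chains 4 of 8 tested rose and 1 fell (62.5% called), with a median log2 change of 0.75. LAMB3, the beta chain of an epithelial laminin bound by ITGA3 and by ITGA6 with ITGB4, rose from 27.0 ± 0.567 to 103 ± 11.3 TPM (1.89). LAMA3 was higher in both shSASH1 libraries but did not pass (0.75, limma adjusted p = 0.0787). LAMC1 (1.12) rose, and so did LAMA4 (0.75, limma adjusted p = 0.0467), which lost its call with no filter, quantile normalization or no variance trend (adjusted p of 0.0508 to 0.0783) and had 0.48 without shSASH1 replicate 2. Centred on its neighbours LAMC1 had 0.56 and still passed. Of 7 tested collagen genes 2 rose and 2 fell (57.1% called, median -0.05). The chains of type IV collagen, the basement membrane collagen, were split: COL4A1 fell from 4.16 ± 0.228 to 0.152 ± 0.0978 TPM (-2.17) and COL4A2 from 3.96 and 4.16 TPM to 0.979 and 1.03 TPM (-1.34), while COL4A5 rose from 5.87 ± 0.137 to 30.9 ± 0.321 TPM (2.22). COL4A1 reached the filter on low values only through shControl, and its shSASH1 libraries held 8 and 17 rebuilt reads. COL4A3 (-0.05) and COL4A4 (-0.14) did not pass, and COL4A6 was under that filter. COL5A2 rose (1.07). COL4A5 had 1.49 when centred on its neighbours and still passed.

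Among the RGD and matricellular ligands 5 of 11 tested rose and 1 fell (54.5% called, against 32.0% of all tested genes, median 0.61). Fibronectin FN1, the ligand of ITGA5 with ITGB1, rose from 4.47 ± 0.0576 to 14.8 ± 0.567 TPM (1.53), and CCN1 (2.99) and CCN2 (1.34), matricellular proteins that bind integrins, rose. MFGE8, an RGD protein bound by ITGAV with ITGB5, fell from 73.6 ± 2.86 to 35.2 ± 9.37 TPM (-1.07). TGFB1, whose latent form is bound by ITGAV with ITGB6 or ITGB8, stood at 66.8 and 63.4 TPM in shControl and 29.6 and 51.7 TPM in shSASH1, short of the threshold (-0.72, limma adjusted p = 0.105).

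Of 5 tested partners of ITGB4 at the hemidesmosome, 1 rose and 2 fell (60.0% called, against 32.0% of all tested genes, 18.8% higher and 13.3% lower, median -0.55). CD151, a tetraspanin bound to laminin-binding integrins, fell from 153 ± 2.43 to 101 ± 9.27 TPM (-0.60), and plectin PLEC, which links ITGB4 to keratin filaments, fell from 257 ± 0.433 to 175 ± 2.31 TPM (-0.55). PLEC lies among genes with a median change of -0.38, and centred on them it had -0.14 and did not pass (adjusted p = 0.187). The plakin DST rose (0.72). KRT5 (-0.13) and KRT14 (-0.80) did not pass, and COL17A1 was under the filter on low values. Of 10 other membrane partners 2 rose and 4 fell (60.0% called, median -0.07): caveolin CAV1 (1.24) and the tetraspanin CD63 (0.39) rose, and SLC3A2 (-0.54), which binds beta tails, and the tetraspanin CD9 (-0.45) fell.

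Of 21 tested activators and adaptors 8 rose and 0 fell (38.1% called, all higher), with a median of 0.22. Of all tested genes 32.0% were called, 18.8% higher and 13.3% lower. Talin TLN1 (1.93) and the kindlin FERMT2 (1.75), both of which activate integrins by binding beta tails, rose from 111 ± 0.586 to 426 ± 24.3 TPM and from 13.8 ± 0.496 to 48.8 ± 0.0300 TPM. TLN1 lies among genes with a median change of 1.17, and centred on them it had 0.75 and still passed. FERMT1, the epithelial kindlin, was lower without passing (-0.75, limma adjusted p = 0.0908), at 6.75 and 7.31 TPM in shControl and 5.03 and 2.78 TPM in shSASH1. Centred on neighbours with a median of -0.54 it had -0.21 (adjusted p = 0.586), and it passed with voom (-0.95, adjusted p = 0.0398) and without shSASH1 replicate 1 (-1.09, adjusted p = 0.0102). KANK2 (0.58) and alpha-actinin ACTN1 (0.57) rose. ACTN1 lost its call in 5 of the 10 settings that kept the 4 libraries, among them centring on neighbours (0.43, adjusted p = 0.140), and had 0.37 without shSASH1 replicate 1. Of 7 inactivators 1 rose and 1 fell (28.6%, median 0.18): filamin FLNA, which competes with talin for beta tails, rose (0.75), and SHARPIN, an inhibitor of ITGB1 activation, fell (-0.59). Centred on their neighbours FLNA had 0.54 (adjusted p = 0.0544) and SHARPIN -0.18 (adjusted p = 0.157). ITGB1BP1, which displaces talin from ITGB1, stood at 63.6 ± 0.884 and 56.3 ± 0.658 TPM and did not pass (-0.17, limma adjusted p = 0.0881). It passed as lower with quantile normalization (-0.28, adjusted p = 0.0286), with voom (-0.25, adjusted p = 0.0314) and without either shSASH1 library (adjusted p = 0.0486 and 0.0446).

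Of 13 adhesion kinases and docking proteins 6 rose and 0 fell (46.2% called, against 32.0% of all tested genes, 18.8% higher and 13.3% lower, median 0.33). The docking protein NEDD9 rose from 5.13 ± 0.00224 to 74.3 ± 9.33 TPM (3.61), the SRC-family kinase LYN from 6.24 ± 0.405 to 26.0 ± 9.28 TPM (1.86) and PTK2B, the relative of focal adhesion kinase, from 3.60 ± 0.576 to 11.0 ± 0.471 TPM (1.40). The adaptor CRKL rose by 0.37. Of 11 tested trafficking genes 5 rose and 1 fell (54.5% called, against the same 32.0%, median 0.24). RAB11FIP1, an effector of integrin recycling, rose from 32.5 ± 1.32 to 78.9 ± 14.4 TPM (1.24), RAB5A (0.55) and RAB25 (0.39) rose, and SNX17, which keeps ITGB1 from degradation, fell (-0.48). RAB25 had 0.07 when centred on its neighbours and did not pass (adjusted p = 0.515). RAB11A and DAB2 of that list were not analysed here.

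**Figure D5:**
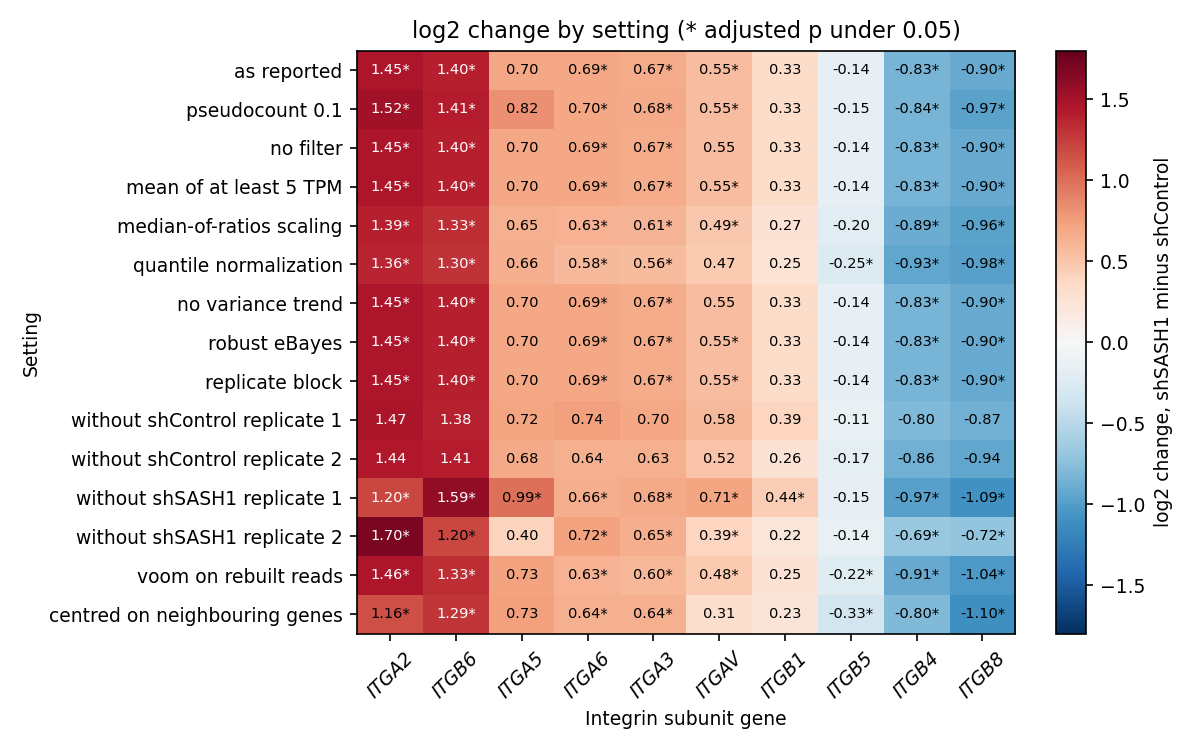
log2 change of each of the 10 subunits (columns) as reported and under 14 other settings (rows), with a star where limma's adjusted p was under 0.05. No subunit changes direction. Among the settings that keep all libraries, only ITGAV and ITGB5 cross the threshold. In rows that leave out a library the stars of other subunits differ too, and both rows without a shControl library have none.

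ITGA2, ITGA3, ITGA6, ITGB4, ITGB6 and ITGB8 passed in all 10 settings that kept the 4 libraries, and ITGAV in 6 of the 10. The 10 subunits kept their direction in every one of the 14 settings of that plot.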

How the data were processed

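RNA-seq was made from total RNA of 4 libraries, extracted with TRIzol and prepared with an NEBNext Ultra kit, per the labels' protocols. The authors deposited TPM per Ensembl gene, 1 column per library. The submitters' processing notes name STAR, DESeq2 and hg38, with no version or role. Which counter, gene lengths and strand setting were used is not given in the sources used here. Because TPM is scaled to a common total, transcripts that become abundant push the rest down. The deposited columns did not sum to the same total, ranging from 910830 to 926711 TPM. All 26518 identifiers were found in GENCODE release 29, which gave the coordinates (1-based), and 89.4%, 89.3%, 89.4% and 88.9% of rebuilt read numbers of up to 20 were within 0.05 of a whole number, so depths are estimates.

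limma 3.58.1 in R 4.3.3 was run (lmFit, eBayes with a variance trend, two-sided, 2.54 prior degrees of freedom, no block) on log2(TPM + 1), and was tested on simulated data. Adjusted p-values cover all 14458 genes. Other settings were a pseudocount of 0.1, no filter, a mean of at least 5 TPM, 2 scalings, 2 variance models, a replicate block, leaving out single libraries, a minimum absolute log2 change of 1, voom on rebuilt reads, and centring on tested genes within 10 Mb (at least 20 of them). The subunits and partner lists were chosen with earlier results of these data known. All 10 subunits were named, with other subunits of at least 1 TPM on average, up to 4 called genes per partner list with the largest change, and ITGB1BP1, TLN1 and FERMT1. 1 gene that this rule names is not reported here. ITGAM, ITGB3, TGFB1, KRT5, KRT14, COL17A1, LAMA3, COL4A3, COL4A4, COL4A6 and the marker genes were named after their values were seen. Tables and plots were made in Python 3.11.15 (pandas 2.3.3, matplotlib 3.10.9).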

Additional observations from a re-analysis of the deposited data

How the results depend on the processing

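Of 100 log2 changes of the 10 subunits in the 10 settings that kept the 4 libraries, 93 stayed on their side of the threshold in the same direction, 4 lost their call (ITGAV with no filter, quantile normalization, no variance trend and centring on neighbours) and 3 gained one (ITGB5). Adding a minimum absolute log2 change of 1 left 2 subunits higher (ITGA2 and ITGB6) and 0 lower, and 734 genes higher and 554 lower overall. Leaving out each library in turn gave 0 to 7 subunits higher and 0 to 2 lower, and 0 to 4543 genes higher and 0 to 3185 lower. The lone sample is then assumed to vary like the other group, and the low ends come from leaving out a shControl library. ITGA2B, the only named integrin to change direction in these settings, ranged from -0.017 (without shSASH1 replicate 2) to 0.75 (without shSASH1 replicate 1, past the threshold), against 0.36 with all libraries. Among the named partners LAMA4, KANK2, ACTN1, RAB5A and CD63 lost their call in at least 1 setting of scaling, filter or variance model, and ACTN1, PLEC, FLNA, SHARPIN and RAB25 when centred on neighbours.

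The replicate numbers are shared only as numbers: the replicate 1 minus replicate 2 differences of the groups had a correlation of -0.0322 across genes, which are not independent replicates. With a replicate block 5 subunits were higher and 2 lower, as without it, and 2372 genes were higher and 1557 lower, against 2712 and 1918. Of the named integrins and partners with a call, only ITGA7 lost it under the block (adjusted p = 0.0569). Depth limits ITGA5 most among the 10 subunits, with 167 to 332 rebuilt reads per library.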
